A study of Danio rerio with 6 samples.

Results

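The neural crest specifiers are transcription factors that switch on the neural crest programme in the embryo. The genes described here were chosen by name and by Ensembl identifier. They are sox10 (ENSDARG00000077467), foxd3 (ENSDARG00000021032), tfap2a (ENSDARG00000059279), pax3a (ENSDARG00000010192), snai2 (ENSDARG00000040046) and snai1b (ENSDARG00000046019). These are 6 of the 27726 genes in the table, and all 6 passed the filter on low values. Transcript levels were measured by RNA sequencing in cells that fluorescence-activated sorting had taken from zebrafish (Danio rerio) larvae at 6 days post fertilization. All larvae carried the sox10:dsRed reporter, a transgene in which sox10 regulatory sequence drives a red fluorescent protein, and the sorted cells were those positive for it. The design compared 3 wild-type libraries with 3 libraries from Shoc2-/- larvae, which carry shoc2 mutations made with CRISPR/Cas9. Shoc2 is a scaffold protein that promotes RAF activation in the RAS-ERK pathway, and the comparison asks what its loss changes in these cells. The labels do not say whether libraries came from separate clutches or sorts, so p-values measure the spread between these libraries, which may be technical.

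Neural crest cells arise at the border of the neural plate, leave the neural tube and give rise to pigment cells, peripheral neurons and glia, and much of the skull and jaw. tfap2a (AP-2 family) and pax3a (paired-box family) act early, at the plate border and in the specification of crest cells. foxd3 (forkhead family) and the Snail-family zinc-finger repressors snai2 and snai1b mark premigratory and migrating crest. sox10 (SoxE family) acts in migrating crest and is kept on in glia and their precursors, while it is also expressed in the otic vesicle and in oligodendrocytes. At the larval age studied here most crest cells have left the specifier stage.

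Read depth was even, at 20088591 to 21802683 reads assigned to genes per library. The shoc2 transcript was lower in all 3 mutant libraries. It stood at 1194, 959 and 1083 normalized counts (reads divided by 1 size factor per library) in wild type, and at 844, 798 and 673 in mutants. Its log2 fold change of -0.48 (SE 0.147) had a limma adjusted p of 0.636. The reads were still there. The titles of the mutant libraries carry the tag D22, which the labels do not explain, and the edit is not described, so this level alone does not check the genotype. Markers of several cell types were present in every library. The myelin gene mbpa, the cartilage genes MATN1 and acana, and the epidermal keratins krt4 and krt5 were all read in every library, the lowest value among them being 2494 normalized counts, and the skeletal muscle actin actc1b had at least 3401.

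None of the 6 specifiers differed between genotypes beyond the spread between libraries. limma with Benjamini-Hochberg adjustment over all 20463 genes tested called 0 of 6 at an adjusted p under 0.05, and called 0.00489% of all genes. At an unadjusted p under 0.05 limma also called 0 of 6, against 5.8% of all genes. edgeR's quasi-likelihood test called 0 of 6 against 0% of all genes at an adjusted p under 0.05, and DESeq2 called 0 of 6 against 0.757%. Wild-type and mutant values overlapped for all 6 genes, where 10.6% of all tested genes did not overlap. With shares this low, 0 of 6 does not set the specifiers apart from other genes. By the sign of the fold change, 4 members were higher and 2 lower in mutants, with a median log2 fold change of 0.12 beside 0.01 for all genes tested. All fold changes of levels were computed on log2(normalized count + 1). In bulk samples like these, fewer cells of a type and less RNA per cell cannot be told apart.

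**Figure D1:**
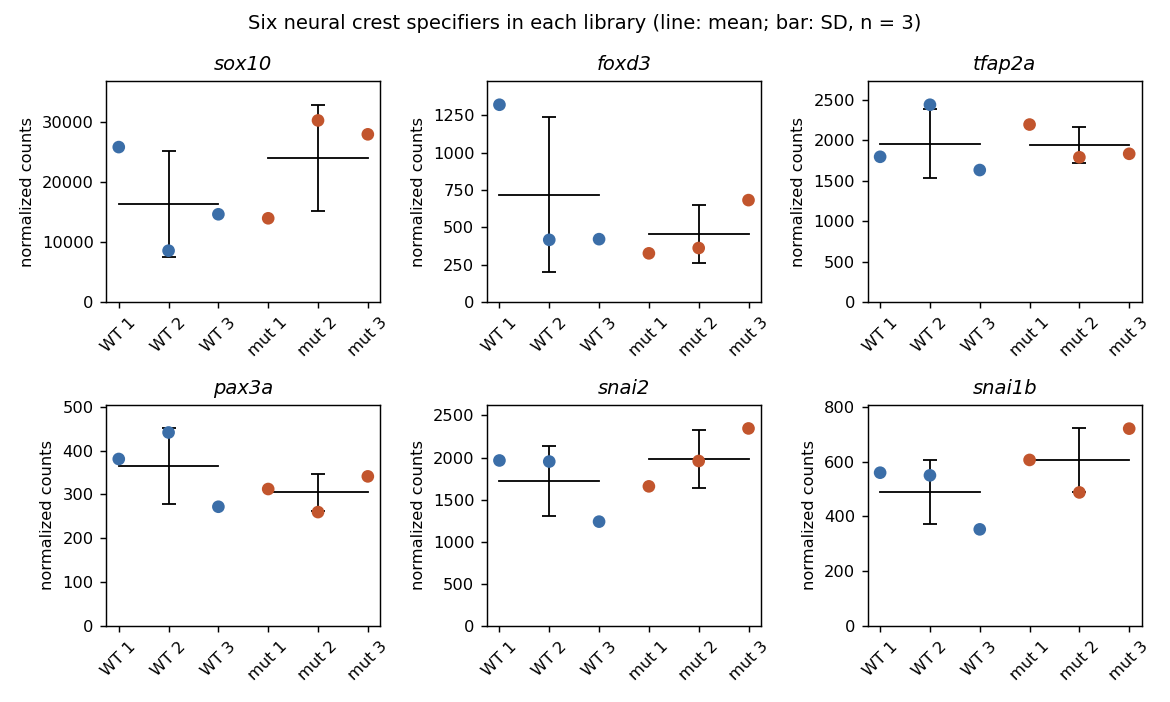
Normalized counts (linear vertical axis) of the 6 specifiers in each library, with wild type (WT) in blue and shoc2 mutants (mut) in orange; lines give the mean and bars the SD of 3 libraries. Wild-type and mutant points overlap in every panel, and the widest scatter is in sox10 and foxd3.

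tfap2a and pax3a, the early-acting pair, were the steadiest of the 6 over libraries. tfap2a stood at 1798, 2442 and 1634 normalized counts in wild-type replicates 1, 2 and 3, and at 2197, 1792 and 1835 in mutant replicates 1, 2 and 3. The mutant values lay inside the wild-type range. The means were 1958 ± 427 (SD, n = 3) in wild type and 1941.5 ± 222 in mutants. The log2 fold change was 0.0033 (SE 0.169, 95% confidence interval -0.38 to 0.39), with a limma adjusted p of 0.999. In linear terms the interval runs from 0.768-fold to 1.31-fold, and this was the narrowest interval of the 6 genes.

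pax3a stood at 381, 441 and 272 normalized counts in wild type and at 312, 259.7 and 341 in mutants, in the same order of replicates. Only mutant replicate 2 fell outside the wild-type range, just under its lowest value. Its means were 365 ± 85.8 (SD, n = 3) and 304 ± 41.3. The log2 fold change of -0.24 (SE 0.216, interval -0.73 to 0.25) had a limma adjusted p of 0.964. Without wild-type replicate 2, the highest library, it was -0.09. A second identifier that the reference table also lists as PAX3 stood at 128 to 164 normalized counts over the 6 libraries, with a log2 fold change of 0.08 (SE 0.208, limma adjusted p 0.986). Whether reads were split between these paralogues is not known, because the counting options are not given in the sources used here.

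The Snail-family genes snai2 and snai1b, repressors best known for lowering cadherin expression when cells detach from an epithelium, had slightly higher means in mutants. snai2 stood at 1966, 1953 and 1239 normalized counts in wild type and at 1658, 1959.6 and 2346 in mutants. Mutant replicates 1 and 2 lay within the wild-type range and mutant replicate 3 above it. The means were 1719 ± 416 (SD, n = 3) and 1988 ± 345, and the log2 fold change was 0.23 (SE 0.206, interval -0.24 to 0.69, limma adjusted p 0.964).

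snai1b stood at 559.7, 549.99 and 353 normalized counts in wild type and at 606, 488 and 721 in mutants. Mutant replicates 1 and 3 exceeded all wild-type libraries, while mutant replicate 2 did not. Its means were 487 ± 117 (SD, n = 3) and 605 ± 116, with a log2 fold change of 0.32 (SE 0.223, interval -0.18 to 0.83, limma adjusted p 0.954). Wild-type replicate 3 held the lowest value of both genes. Without it the log2 fold changes were 0.01 for snai2 and 0.11 for snai1b. The paralogue snai1a had 798 to 1159.5 normalized counts and a log2 fold change of -0.15 (SE 0.158, limma adjusted p 0.967).

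foxd3, a forkhead factor of premigratory crest that is later found in glial and pigment lineages, was set apart by a single library. Wild-type replicate 1 held 1319 normalized counts, and the other wild-type libraries held 417 and 421. The mutant libraries held 327, 362 and 682. The highest library was 4.04 times the lowest, the widest range of the 6 genes. The means were 719 ± 519.7 (SD, n = 3) in wild type and 457 ± 196 in mutants. The log2 fold change was -0.51 (SE 0.45, interval -1.52 to 0.51), with a limma adjusted p of 0.964. Without wild-type replicate 1 the fold change was 0.04, so the sign of the difference rested on that library. The same library was the highest for mbpa, which encodes myelin basic protein. mbpa had 33409 normalized counts there, against 12621 and 14838 in the other wild-type libraries and 10740 to 19519 in mutants. The orders differed beyond that library. Mutant replicate 3, next highest for foxd3, had less mbpa (15004) than mutant replicate 2 (19519). Of the pigment marker sums, that of iridophores was also highest in wild-type replicate 1 (2213) and next in mutant replicate 3 (2014). Those of melanophores and xanthophores were highest in mutant replicate 3 (12525) and wild-type replicate 3 (1099). mbpa is the 1 glial marker used here, and the part of these cell types in the foxd3 values was not tested.

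sox10, the gene whose regulatory sequence drives the sorted reporter, had the most reads of the 6, between 0.0404% and 0.146% of all reads in a library. By read number, which also depends on transcript length, it exceeded 99.4% of the genes tested. It stood at 25782, 8573 and 14619.8 normalized counts in wild type and at 13953, 30211.5 and 27904 in mutants. The libraries fell into a higher set (wild-type replicate 1 and mutant replicates 2 and 3) and a lower set (wild-type replicates 2 and 3 and mutant replicate 1) that did not follow genotype. The highest library was 3.52 times the lowest. The means were 16325 ± 8730.4 (SD, n = 3) and 24023 ± 8797, and the log2 fold change was 0.62 (SE 0.401, interval -0.29 to 1.53, limma adjusted p 0.952). In linear terms the interval runs from 0.819-fold to 2.89-fold. Leaving out 1 library moved the log2 fold change from 0.23 (without wild-type replicate 2) to 1.02 (without wild-type replicate 1). Without wild-type replicate 1 the unadjusted p in limma was 0.0186, where 7.62% of all genes had an unadjusted p under 0.05, and the adjusted p was 0.526. Without mutant replicate 1 the log2 fold change was 0.97 with an unadjusted p of 0.0374, where 6.46% of all genes were under 0.05, and an adjusted p of 0.747.

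**Figure D2:**
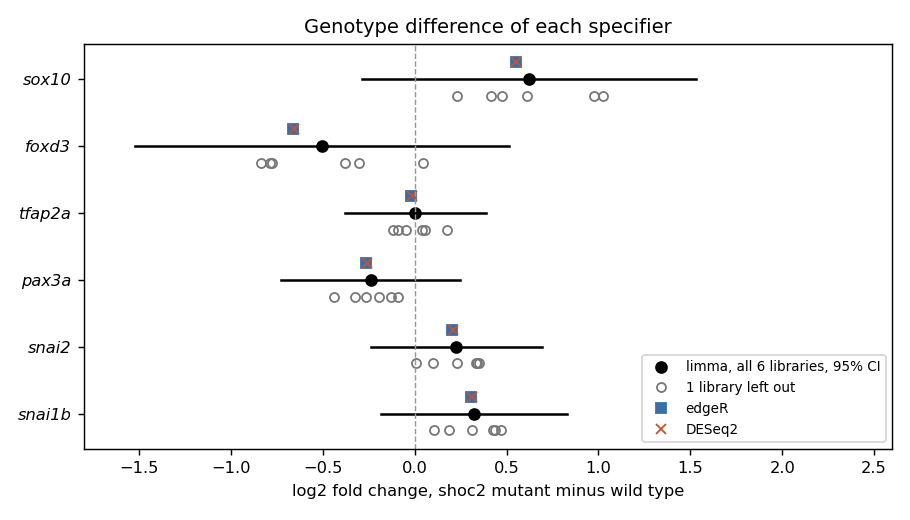
Log2 fold change (mutant minus wild type, horizontal axis) of each specifier: black points and lines give limma's estimate and 95% confidence interval from all 6 libraries, open circles the estimates with 1 library left out, squares edgeR and crosses DESeq2. Every interval spans 0, from the narrowest in tfap2a (-0.38 to 0.39) to the widest in foxd3 (-1.52 to 0.51).

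Marker levels of other cell types are given here beside sox10. The cartilage markers MATN1 (matrilin-1) and acana (aggrecan), 2 of 4 matched, summed to 10309 to 27182 normalized counts in wild type. In mutants they summed to 33078 to 67696. The genotypes did not overlap in this sum, as for 10.6% of single genes tested, and neither gene was at 0. The library lowest in sox10, wild-type replicate 2, was also lowest for this sum, and the library highest in sox10, mutant replicate 2, was highest. Between these ends the orders differed, since mutant replicate 1 was above wild-type replicate 1 for the cartilage sum (33078 against 27182) and below it for sox10. MATN1 itself had a log2 fold change of 1.30 (SE 0.345, limma adjusted p 0.518) and acana 1.52 (SE 0.419, limma adjusted p 0.536), so neither passed the threshold. The sum of the epidermal markers was highest in the wild-type libraries low in sox10, but not in mutant replicate 1 (41098), which was also low in sox10. All 5 (krt4, krt5, epcam, TP63, cdh1) were present, and their sum was 132096 in wild-type replicate 2 and 104021 in wild-type replicate 3, against 35702 to 61302 in the other libraries. Most of it was krt4 and krt5 (68188 and 56826 in wild-type replicate 2). By the sign of the fold change 4 of the 5 were lower and 1 higher in mutants. The skeletal muscle markers (3 of 5 matched) summed to 5122 to 33503 in wild type and 7591 to 68316 in mutants, highest in mutant replicate 1, and did not follow sox10. The part of these cell types in the sox10 values was not tested.

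**Figure D3:**
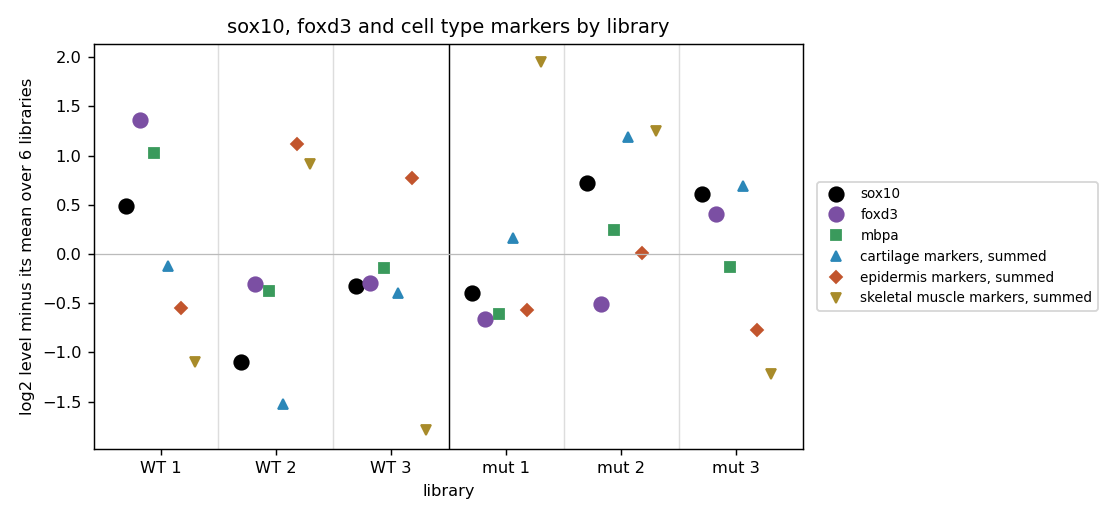
Log2 level minus its mean over the 6 libraries (vertical axis) for sox10, foxd3 and the glial gene mbpa and the summed markers of 3 cell types, in each library (horizontal axis). sox10 and the cartilage sum are both lowest in wild-type replicate 2 (-1.10 and -1.52) and both highest in mutant replicate 2 (0.72 and 1.19), while foxd3 and mbpa are highest in wild-type replicate 1 (1.36 and 1.02).

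By the rule fixed for likeness, the genes whose profile over the 6 libraries was closest to that of sox10 were SLC4A4 (Pearson r = 0.997), a sodium bicarbonate cotransporter, and RGCC (Pearson r = 0.995), a regulator of the cell cycle. SLC4A4 ran from 1035 to 2189 normalized counts and RGCC from 705 to 1368. Each was lowest in wild-type replicate 2 and highest in mutant replicate 2, like sox10. They were taken from 16697 genes averaging 50 normalized counts or more, of which 0.737% had r of at least 0.95 with sox10. No other specifier was near the top of that order. foxd3, the closest, ranked 3702, and tfap2a, the farthest, ranked 14760.

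Correlations between the specifiers were not resolved with 6 libraries. Among their 15 pairs, 12 had a positive Pearson correlation of log2 values over the 6 libraries, and none passed after Benjamini-Hochberg adjustment over the 15 (smallest adjusted p 0.600 for Pearson and 0.637 for Spearman, exact permutation tests over all 720 pairings). The highest was between the Snail-family genes snai2 and snai1b, with r = 0.85 (exact permutation p = 0.0458) and rho = 0.60 (exact permutation p = 0.242). Without the libraries farthest from the median of snai2, wild-type replicate 3 and mutant replicate 3, r was -0.73. The libraries left were close in snai2 (1953 to 1966 normalized counts) except for mutant replicate 1 (1658). This r therefore cannot show what the relation rested on. sox10 and tfap2a had the lowest, with r = -0.69 (exact permutation p = 0.147) and rho = -0.60 (exact permutation p = 0.242). Without wild-type replicate 2 and mutant replicate 2 that r was -0.24. For each pair the 2 libraries farthest from the median of the gene named first were left out, so the libraries dropped differ between pairs. Such trimming, which leaves 4 libraries, raised r for 10 of the 15 pairs and left 9 at 0.5 or more. Which gene is named first follows the order of the list, and trimming on the other gene was not run. For sox10 with foxd3 that would drop other libraries, those left out for the other foxd3 pairs. The counts of 10 and 9 and the trimmed r values therefore hold for this order only. Without wild-type replicate 2 and mutant replicate 2, r went from -0.43 to 0.81 for sox10 with pax3a and from 0.45 to 0.85 for sox10 with foxd3. For tfap2a with snai2 it went from 0.27 to 0.99 without wild-type replicate 2 and mutant replicate 1. Of the 4 libraries left there, wild-type replicate 3 was lowest in both genes (1634 and 1239 normalized counts). The others held 1792 to 1835 for tfap2a and 1959.6 to 2346 for snai2. An r over 4 libraries can rest largely on 1 of them. Leaving out wild-type replicate 1 and mutant replicate 3 lowered r to -0.64 for foxd3 with snai1b and to -0.29 for foxd3 with snai2. The pairs share libraries, so these values are not independent of each other. Batches are not given in the labels, and each genotype has too few libraries for a correlation of its own.

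**Figure D4:**
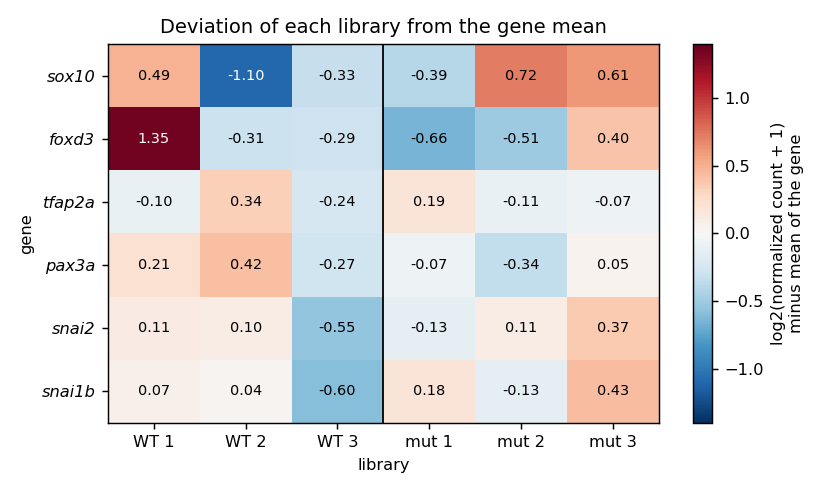
Log2(normalized count + 1) minus the mean of the gene (colour and printed value) for the 6 specifiers (rows) in the 6 libraries (columns, wild type left of the line). Wild-type replicate 3 is below the mean for all 6 genes (-0.24 to -0.60), and the largest single deviation is foxd3 in wild-type replicate 1 (1.35).

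Ratios of reads within a library do not depend on how libraries were scaled, and were taken after the levels had been seen. foxd3 had 51.2, 48.6 and 28.8 reads per 1000 sox10 reads in wild type and 23.4, 11.99 and 24.5 in mutants. All 3 mutant libraries were below all 3 wild-type libraries. The mean was 42.9 ± 12.2 (SD, n = 3) in wild type and 19.96 ± 6.91 in mutants, a log2 difference of -1.13 or 0.457-fold (exact two-sided permutation p = 0.1, the smallest that 3 against 3 libraries allow). Among all other genes tested with a read in every library, 3.98% had a ratio to sox10 that did not overlap, and 3.76% were lower in mutants. The other 4 ratios to sox10 overlapped. Their log2 differences were -0.86 for pax3a, -0.62 for tfap2a, -0.39 for snai2 and -0.30 for snai1b, all with the higher mean in wild type. The foxd3 ratio joins a numerator that 1 library raised in wild type with a denominator that was higher on average in mutants, and neither gene passed the threshold alone. In wild-type replicate 2 the ratio of 48.6 came from 417 normalized counts of foxd3 and the lowest sox10 of all libraries (8573). Without wild-type replicate 1 the log2 difference of the ratio was -0.98. In that setting limma's log2 fold change was 0.04 for foxd3 and 1.02 for sox10, so the difference lay in sox10. Without mutant replicate 2 the log2 difference of the ratio was -0.80.

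**Figure D5:**
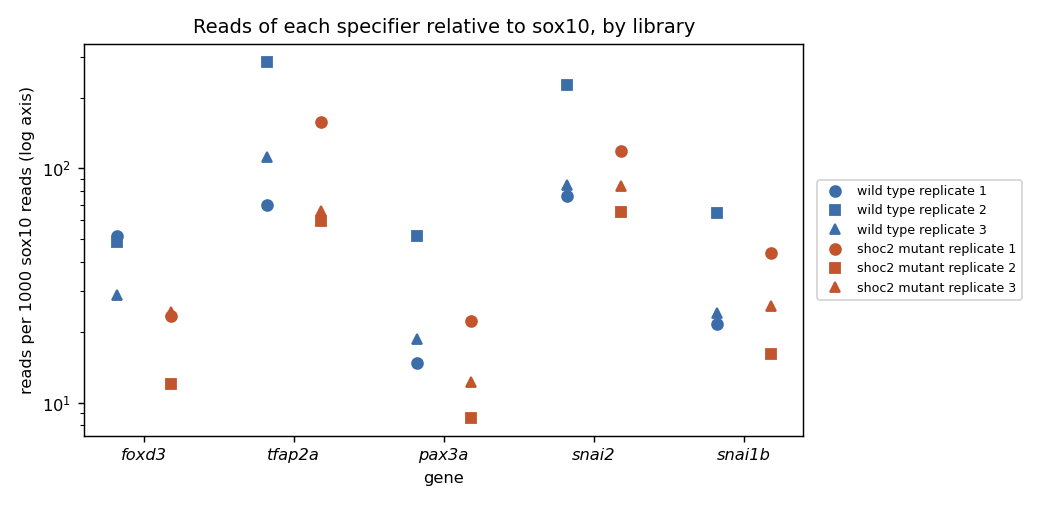
Reads of the other 5 specifiers per 1000 sox10 reads in the same library (log axis), with wild type in blue, mutants in orange and the symbol giving the replicate. Only foxd3 has all mutant points (11.99 to 24.5) below all wild-type points (28.8 to 51.2), and wild-type replicate 2 is highest for each of the other 4 genes.

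Over all 15 ratios between specifiers, 3 did not overlap between genotypes, and the other 2 both had pax3a as the denominator. Those 2 are therefore not independent of each other. The share of non-overlapping ratios over all pairs of genes was not computed. snai1b had 1.47, 1.25 and 1.30 reads per pax3a read in wild type and 1.94, 1.88 and 2.11 in mutants, with means of 1.34 ± 0.117 (SD, n = 3) and 1.98 ± 0.121 (exact permutation p = 0.1). The snai1b ratios were tighter within a genotype than the levels of either gene. They are shown because they did not overlap, a choice that favours a small spread. snai2 had 5.16, 4.43 and 4.56 reads per pax3a read in wild type and 5.31, 7.55 and 6.88 in mutants, where mutant replicate 1 was close to wild-type replicate 1 (exact permutation p = 0.1). The ratio to pax3a did not overlap for 9.1% of all other genes tested, and was higher in mutants for 8.26%.

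Other regulators of the neural crest network gave 32 identifiers, all tested. limma called 0 higher and 0 lower at an adjusted p under 0.05, and 16 were higher and 16 lower by sign, with a median log2 fold change of -0.0012. At an unadjusted p under 0.05 limma found 3 higher and 2 lower of the 32, against 5.8% of all genes tested. The smallest p belonged to TFAP2E, an AP-2 family relative of tfap2a, with 438, 478 and 400.3 normalized counts in wild type and 823, 635 and 765 in mutants. All 3 mutant libraries were above all 3 wild-type ones, and the log2 fold change was 0.75 (SE 0.156, limma adjusted p 0.336). Next was an identifier listed as SOX9 (ENSDARG00000003293), a SoxE relative of sox10 that drives cartilage formation, at 7251 ± 1499 in wild type and 10930.5 ± 1374 in mutants (normalized counts, SD, n = 3). The log2 fold change of this SOX9 identifier was 0.60 (SE 0.168, limma adjusted p 0.542). ID3, an inhibitor of basic helix-loop-helix factors, followed at 2759 ± 709 and 3864 ± 353, with a log2 fold change of 0.51 (SE 0.182, limma adjusted p 0.731). SOX9 and ID3 were both lowest in wild-type replicate 2, the library lowest in sox10. Beyond that library their orders differed from that of sox10. Both were highest in mutant replicate 3. Unlike sox10, both were also higher in mutant replicate 1 than in wild-type replicate 1. The lower pair at the unadjusted threshold were mych, a Myc family gene (log2 fold change -0.32, SE 0.119), and msx2b, a homeobox gene (-0.48, SE 0.2). The identifier of crestin, a transcript that marks zebrafish crest cells in the embryo, had 9.10 to 27.4 normalized counts in any library. Whether all reads of crestin were counted there is not known, because the counting options are not given.

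Genes of neural crest derivatives gave 16 identifiers, of which 15 were tested. limma called 0 in either direction at an adjusted p under 0.05, and the median log2 fold change was 0.06. At an unadjusted p under 0.05 it found 1 higher and 0 lower of the 15, a share near the 5.8% of all genes tested. The gene was KIT, the receptor that melanophores need for migration and survival, which stood at 638, 511 and 598 normalized counts in wild type and at 833, 685 and 819 in mutants, without overlap (log2 fold change 0.42, SE 0.152, limma adjusted p 0.749). The neuronal RNA-binding gene ELAVL3 came next, at a log2 fold change of 0.40 (SE 0.196, limma adjusted p 0.901), before ltk, a receptor tyrosine kinase of iridophores, at -0.25 (SE 0.174, limma adjusted p 0.955).

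The marker lists of other cell types also gave 0 calls at an adjusted p under 0.05 in limma. Their smallest p-values belonged to cd74b and cd74a, invariant chains of antigen presentation. cd74b averaged 465 ± 231 in wild type and 52.6 ± 12.5 in mutants (normalized counts, SD, n = 3), for a log2 fold change of -3.01 (SE 0.376, limma adjusted p 0.101). cd74a had a log2 fold change of -4.12 (SE 0.566, limma adjusted p 0.124). The other 3 matched leukocyte markers, LCP1, CORO1A and ptprc, were also lower by sign, and the sum of all 5 was 2272 to 4941 in wild type against 979 to 2229 in mutants, with none at 0.

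Counting error was small beside the spread between libraries. The fewest reads in any library were 253, for pax3a, with an exact Poisson 95% interval of 223 to 286 that covers counting error only. Within wild type the variance of normalized counts was 20.01 times that of counting for pax3a and 4626 times for sox10. Within mutants these ratios were 5.74 and 3303. By the standard error of the log2 fold change, foxd3 was noisier than 83.8% of all genes tested and sox10 noisier than 79.3%, while tfap2a was noisier than 26.4%.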

How the data were processed

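The 6 libraries were grouped by the source name in the labels, which also numbers the replicates 1 to 3. Per the submitters' processing notes, FastQC 0.11.7, STAR 2.6 and Cuffnorm were used with build GRCz11. The table is named as HTSeq normalized counts. Counting options, strand setting, annotation and normalization method are not given in the sources used here. The deposited values are a signal in normalized counts. In all 6 columns 100% of values were whole multiples of 1 step, to within 5.41e-05 reads, which gives size factors of 0.947 to 1.07 and the whole reads. For wild-type replicate 3 the step is 1.01, so close to 1 that a check for steps set by rounding does not accept it. edgeR and DESeq2 use its reads all the same, and recovery there rests on the fit to that step.

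The reference gene table paired 25324 of 27726 identifiers with a symbol. It lists sox10, foxd3, tfap2a and pax3a as SOX10, FOXD3, TFAP2A and PAX3. Some genes of the lists are not reported here. Of 34 network and 18 derivative genes, 2 each could not be matched to 1 identifier (zic2a, rxraa, mitfa, tyrp1b). Of the marker lists, leukocytes (5), epidermis (5), skeletal muscle (3), neurons (2), glia (1), melanophores (2), xanthophores (3), iridophores (3), cartilage (2) and erythrocytes (2) kept the identifiers counted in parentheses. No list had a limma call.

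Genes with at least 10 normalized counts in at least 3 libraries were kept. log2(value + 1) was fitted with limma 3.58.1 (mean-variance trend, R 4.3.3), with a Benjamini-Hochberg threshold of 0.05. edgeR 4.0.16 and DESeq2 1.42.0 were run on the whole reads. The fits were tested on simulated data with known changes. Alternatives were pseudocounts of 0.1 and 8, no filter, a mean of at least 50, TMM and equal-total scaling, no trend, the replicate block and each library left out. Genes named outside the 6 were the 3 with the smallest p in each list group and the 2 most like sox10. shoc2 was in the plan as the targeted gene. acana, mbpa, krt4, krt5, actc1b, crestin, mych, msx2b, snai1a and the second PAX3 were named after their values were seen. Members and lists were chosen with earlier results of these data known.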

Additional observations from a re-analysis of the deposited data

How the results depend on the processing

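The count of specifiers called stayed at 0 of 6 under all 16 alternatives, and the count of correlated pairs at 0 of 15 under the 4 that were run. Without the variance trend, with edgeR and with the replicate block, no gene at all was called. The same held with any library but wild-type replicate 2 left out. In these alternatives 0 of 6 was the only possible count. Of the rest, only DESeq2 (155) called more than 4 genes, so 0 of 6 was close to fixed in the others. Pairs were not recomputed with a library left out, because 5 libraries are too few. Over all genes limma called 1. The count was 3 without the filter, 0 without the variance trend, 0 with edgeR (1232 genes at an unadjusted p under 0.05), 155 with DESeq2 and 0 with the replicate block (906 unadjusted). Leaving out a library gave 0 to 4. The cause was not tested.

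sox10, pax3a, snai2 and snai1b kept their direction under all 16 alternatives. The filters, the variance trend and the replicate block cannot change limma's fold change here, so they could not have reversed it. With a library left out, the log2 fold changes smallest in size were 0.0065 for snai2, -0.089 for pax3a, 0.11 for snai1b and 0.23 for sox10. With a library left out the foxd3 log2 fold change ran from -0.83 to 0.044, and it reversed, to 0.044, without wild-type replicate 1. The tfap2a log2 fold change, near 0, turned to -0.0061 with TMM scaling, -0.022 with edgeR and -0.015 with DESeq2, and with a library left out it ran from -0.12 to 0.17. For the foxd3 to sox10 ratio, dropping each library in turn gave log2 differences between -1.39 and -0.80, an alternative added after seeing the data. This ratio did not overlap between genotypes, so dropping 1 library could change the size of its difference but not the direction. Deviations of same-numbered libraries from their genotype means correlated at -0.20, -0.03 and -0.09. These values cannot tell whether such libraries shared a clutch or sort, which the labels do not give. The replicate block called no gene at all, so it could not have called a specifier. The spread between libraries, more than depth, limits these comparisons.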
